A study of Rattus norvegicus with 11 samples.

Results

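The proteasome genes are the 45 genes on the array whose current symbol begins with Psma, Psmb, Psmc, Psmd, Psme, Psmf or Psmg, of 13888 genes that could be named from an mRNA accession. Each of the 45 had a single mRNA probe with a single spot, so no choice between probes was needed. Of the 45, 43 encode parts, activators, inhibitors or assembly factors of the proteasome, while Psmc3ip, a partner of meiotic recombinases, and Psme3ip1, a protein that binds Psme3, share only the prefix. No probe was matched for Psmb11, the catalytic subunit of the thymus, nor for Psmd11, Psme4, Psmg1 and Psmg3, which were not analysed here.

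The proteasome is the barrel-shaped protease that breaks down proteins tagged with ubiquitin. Its 20S core is built of stacked alpha and beta rings, and the beta subunits Psmb5, Psmb6 and Psmb7 carry the active sites. The 19S cap, with the Psmc ATPases and the Psmd subunits, binds, unfolds and feeds in the substrate. In cells stimulated by interferon gamma the subunits Psmb8, Psmb9 and Psmb10 are built in instead, which forms the immunoproteasome, and the cap can be replaced by the Psme1 and Psme2 ring. The immunoproteasome favours peptides that fit MHC class I molecules, and it is abundant in immune cells. In neurons the constitutive form prevails.

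RNA came from trigeminal ganglia (TRG), which contain the sensory neurons of the face with their satellite glia and Schwann cells. Male Wistar rats, of an age the labels do not give, had received 50 μl of CFA (complete Freund's adjuvant, a suspension of killed mycobacteria in oil, at 1 mg/ml) under the skin of the whisker pad on a single side, and both ganglia were removed 7 days later. The CFA group comprised the ipsilateral ganglia of rats 1, 2, 3, 5, 6 and 8, and the contralateral group the opposite ganglia of rats 1, 2, 3, 5 and 6, so the controls came from inflamed animals and no untreated animal was among them. Each ganglion was hybridised to its own single-colour array, and all values are quantile-normalised log2 signals. A log2 fold change is the CFA mean minus the contralateral mean, and a value after ± is, unless stated, the SD over arrays. Whole ganglia were measured, so fewer cells of a type and less RNA per cell cannot be told apart.

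The 11 arrays were spread over 5 slides and 3 days of scanning. Slide 2 carried the CFA ganglion of rat 1 beside the contralateral ganglia of rats 5 and 6, while each other slide carried a single group. CFA arrays of slides 4 (rats 2 and 3) and 5 (rats 5, 6 and 8) were scanned on days 2 and 3, after all the other arrays. Apart from rat 1, side and slide therefore cannot be told apart, and the difference within slide 2 is given beside the main results. Between 68.9% and 82.8% of the spots of an array were well above background. All 9 measured markers of sensory neurons were well above background on all 11 arrays. Of these, 1 of 9 was higher on the CFA side at an unadjusted p of 0.05 or less from limma, and none was lower. It was Calca, the CGRP precursor (log2 fold change 0.26). Of all probes, 4.02% were higher at this p, and 10.8% passed it in either direction. Among the other marker lists reported here, none of 5 satellite glia, 7 macrophage, 6 T cell, 2 B cell, 5 skeletal muscle, 3 red blood cell or 7 anterior pituitary markers passed. Summed over its list, the linear signal of the neuronal markers was 917935 to 978139 on the CFA and 887027 to 921425 on the contralateral arrays. Whether this difference between the sums had a part in the results on the proteasome genes was not tested.

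Proteasome transcripts differed little between the inflamed and the opposite ganglion on day 7. Psma7, an alpha ring subunit, and Psmb2, a beta ring subunit without an active site, were higher on the CFA side, and Psmc5, an ATPase of the cap, was lower, each at an unadjusted p of 0.05 or less. The other 42 genes did not pass. These 3 of 45 genes make up 6.67%, against 10.8% of all 24684 probes. By direction, 2 of 45 were higher, against 4.02% of all probes, and 1 was lower, against 6.75%. None of the 45 passed the study's threshold, an unadjusted p up to 0.05 with a fold change over 2, which 2.02% of all probes passed, and none had an adjusted p of 0.05 or less in limma (smallest 0.389), nor did any other probe. No proteasome gene had groups that did not overlap, against 1.19% of all probes. The median log2 fold change of the 45 genes was -0.02, with 17 above and 28 below 0, and that of all probes was -0.04. The split by direction moved with the scaling. With 75th percentile scaling 0 of 45 genes were higher and 2 lower (Psma6 and Psmg2, none of the 3 named above). Of all probes, 8.13% passed in either direction under this scaling. With bands of array rows centred on all their spots 4 were higher (Psma7, Psmb2, Psma2 and Psmb5) and 0 lower. There 14.4% of all probes passed in either direction.

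The small differences were measured with narrow intervals. Spots of all 45 genes were well above background on all 11 arrays, and the median of their pooled SD within the groups was 0.12, against 0.31 for all probes. The log2 fold changes ran from -0.23 (Psmc5) to 0.58 (Psmb2), and 44 of 45 were under 0.3 in size. For 40 genes the 95% interval from limma lay inside 0.5 on the log2 scale, and for 43 it lay inside a 2-fold change in either direction. Among all probes the same held for 40.9% and 77.6%, but the proteasome spots were brighter than most. A mean log2 signal over 12 was reached by 39 of 45 genes, against 23.6% of all probes. The intervals have no term for slide, and for several genes the difference within slide 2 lay outside the interval. Among these were all 3 genes that passed, Psmb2 (-0.55), Psma7 (0.04) and Psmc5 (0.092). Others were Psmb8 (-0.66), Psmd10 (-0.38), Psmd12 (-0.18), Psmd13 (0.14) and Psmb1 (0.12). The intervals that crossed the 2-fold limit were those of Psmb2, from 0.01 to 1.15, and Psma8, the alpha subunit of male germ cells, from -0.48 to 1.01. The spot of Psma8 was dim, with signals from 4.36 to 6.10 on the contralateral and 4.95 to 5.76 on the CFA arrays.

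**Figure D1:**
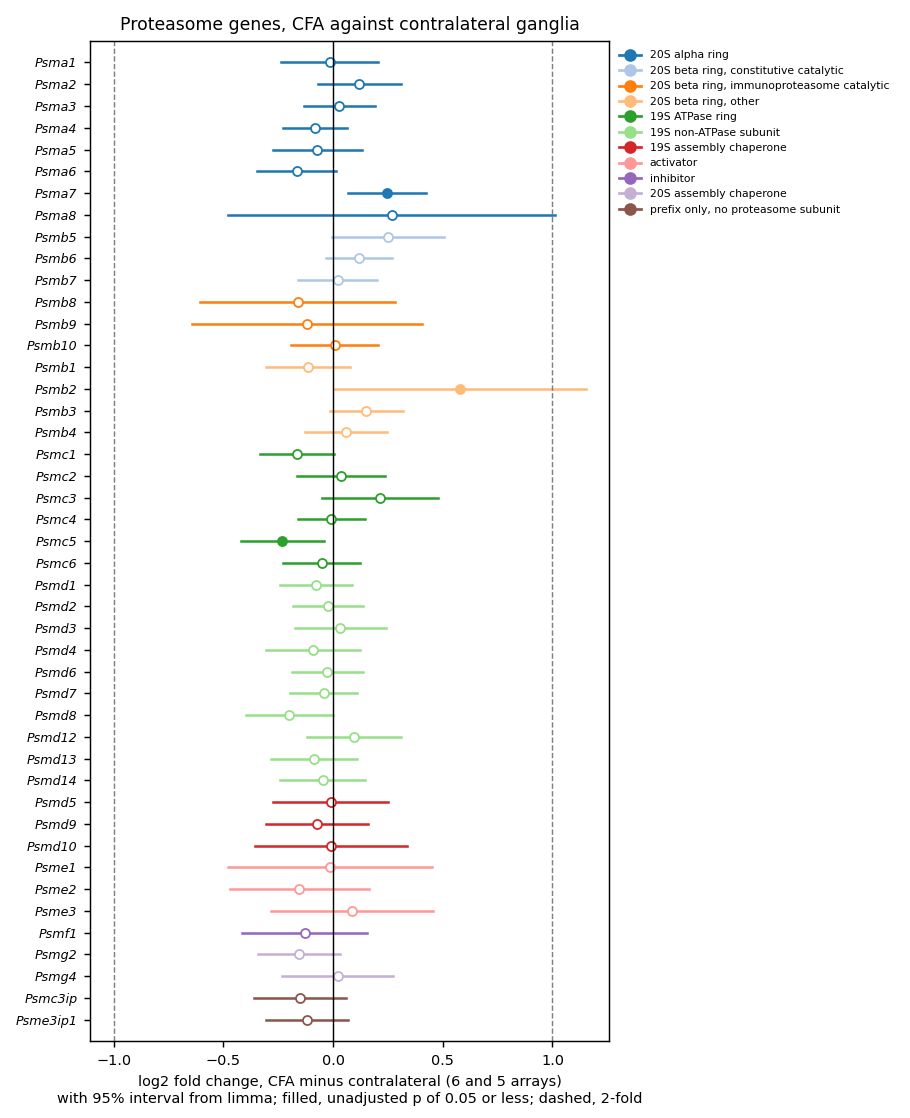
Log2 fold change (x axis, CFA minus contralateral) of the 45 genes (y axis) with the 95% interval from limma, coloured by role, over 6 CFA and 5 contralateral arrays. Filled points mark the 3 genes with an unadjusted p of 0.05 or less, and only the intervals of Psma8 and Psmb2 cross a dashed line at a 2-fold change.

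Stretches of 100 bases at the annotated start of the genes are shown for Psmb8, Psmb9, Psmb10 and Psme2, which interferon is known to induce. The results turn on whether the immunoproteasome subunits moved apart from their constitutive counterparts. Psme1, which forms a ring with Psme2, is not shown. The sequences are RefSeq's for the assembly GRCr8, which is later than the array's design, and 41 of the 45 genes had an entry. They run 5′ to 3′ along the gene and end at the last base before the start, except that of Psmb8, which goes 6 bases past it so that the match is whole. Capitals mark the core of the interferon-stimulated response element, which was searched on both strands as GAAA, any 2 bases and GAAA again.
Psmb8, chr20:4657026-4657125, minus strand: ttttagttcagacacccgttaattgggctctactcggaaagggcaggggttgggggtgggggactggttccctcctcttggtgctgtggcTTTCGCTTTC
Psmb9, chr20:4668900-4668999, plus strand: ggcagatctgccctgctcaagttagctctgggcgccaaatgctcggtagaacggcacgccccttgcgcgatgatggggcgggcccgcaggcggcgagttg
Psmb10, chr19:50743293-50743392, minus strand: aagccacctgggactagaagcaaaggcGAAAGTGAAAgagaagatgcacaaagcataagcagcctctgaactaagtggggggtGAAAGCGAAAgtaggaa
Psme2, chr15:33052752-33052851, minus strand: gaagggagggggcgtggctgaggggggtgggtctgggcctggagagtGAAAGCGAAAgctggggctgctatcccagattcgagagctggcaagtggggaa
The core was found at the start of Psmb8 (bases -4 to 6), at 2 places in Psmb10 (-73 to -64 and -17 to -8), and once in Psme2 (-53 to -44), and not in these letters in the window of Psmb9. From 250 bases before to 50 bases after the start, it was held by 7 of 41 proteasome promoters (17.1%), namely Psma4, Psmb3, Psmb8, Psmb10, Psmd7, Psme2 and Psmg4, and by 3.92% of all 33469 promoters of the same length. The core of the gamma-activated site, TTCNNNGAA, was held by 4 of the 41 (9.76%), Psmb8, Psmc6, Psmd3 and Psmd7, and by 8.87% of all, and no match of it overlapped a match of the other core.

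The immunoproteasome subunits were not detectably induced on the CFA side. Psmb8 replaces Psmb5 in the immunoproteasome, Psmb9 replaces Psmb6 and Psmb10 replaces Psmb7. Psmb8 had signals of 12.01, 12.09, 11.61, 11.79 and 12.02 in the contralateral ganglia (rats 1, 2, 3, 5 and 6), and of 11.24, 12.25, 11.28, 11.79, 12.20 and 11.69 in the CFA ganglia (rats 1, 2, 3, 5, 6 and 8). The CFA arrays spread over a wider range than the contralateral ones and reached beyond them at both ends. On the log2 scale its difference between the sides was -0.16 (SE 0.20, limma adjusted p = 0.748), with a 95% interval from -0.61 to 0.28, that is, from 0.657 to 1.22 times the contralateral level.

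Psmb9 had signals of 10.47, 10.80, 9.91, 10.43 and 10.41 on the contralateral arrays in the same order, and of 9.80, 11.03, 9.73, 10.27, 10.55 and 10.32 on the CFA arrays. Again the CFA array of rat 2 was the highest and those of rats 1 and 3 were the lowest. On the log2 scale its difference between the sides was -0.12 (SE 0.24, limma adjusted p = 0.845), with an interval from -0.64 to 0.40. Psmb10 had signals of 14.76, 14.89, 14.76, 14.83 and 14.67 on the contralateral and of 14.82, 14.87, 14.50, 14.87, 14.87 and 14.81 on the CFA arrays. They lay close together except on the CFA array of rat 3, the lowest of all 11. On the log2 scale its difference between the sides was 0.01 (SE 0.09, limma adjusted p = 0.980), with an interval from -0.19 to 0.20. The median of the 3 log2 fold changes was -0.12, and 0 of 3 passed, against 10.8% of all probes. Within slide 2, where rat 1 alone stands for the CFA side, the difference was -0.66 for Psmb8, -0.62 for Psmb9 and 0.06 for Psmb10.

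**Figure D2:**
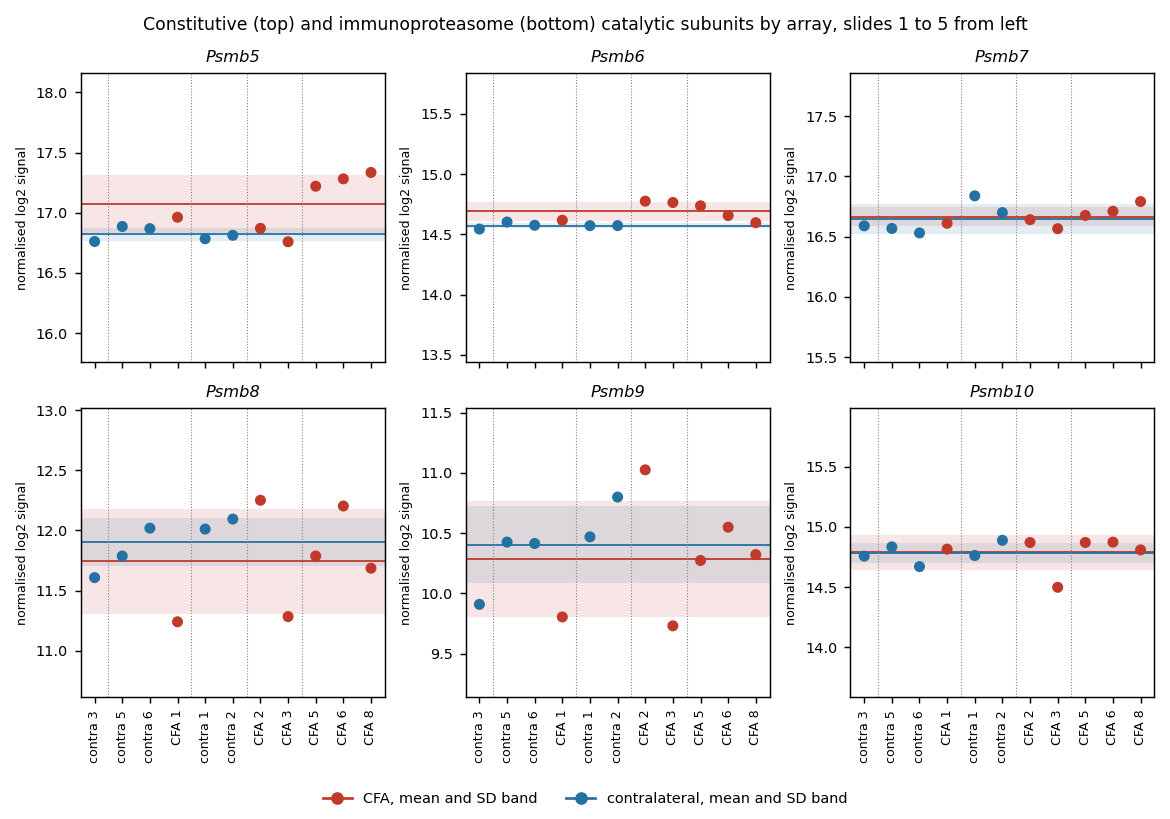
Normalised log2 signal (y axis, each panel on its own level) of the 3 constitutive and the 3 immunoproteasome catalytic subunits on each array (x axis, side and rat, dotted lines between slides), with the mean (line) and SD (band) of each group. The CFA arrays of rats 1 and 3 are lowest for Psmb8 and Psmb9, and the 3 CFA arrays of slide 5 lie above all others for Psmb5.

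Psmb8 and Psmb9 varied among ganglia more than most of the other subunits. Their pooled SD within the groups was 0.35 and 0.42, in rank 5 and 3 of 45, while that of Psmb10 was 0.12. Over the 6 CFA arrays Psmb8 and Psmb9 went together, with Pearson's r = 0.95 (exact permutation p = 0.00972, adjusted p = 0.0292 over 3 pairs) and Spearman's rho = 0.89 (exact permutation p = 0.0333, adjusted p = 0.10). Without the arrays of rats 1 and 2, the farthest from the median of Psmb8, r was 0.95 over the remaining 4. For Psmb8 with Psmb10 r was 0.64 (exact permutation p = 0.0944, adjusted p = 0.142) and rho 0.66 (exact permutation p = 0.175), and for Psmb9 with Psmb10 r was 0.66 (exact permutation p = 0.181) and rho 0.60 (exact permutation p = 0.242). These arrays share slides, 1 on slide 2, 2 on slide 4 and 3 on slide 5, and a relation within a slide cannot be computed from so few. On slide 4 both genes were high in rat 2 and low in rat 3. The contralateral arrays had the same extremes, with rat 2 highest (Psmb8 12.09, Psmb9 10.80) and rat 3 lowest (11.61 and 9.91). A correlation over the 5 contralateral arrays was not computed.

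Psmb8 and Psmb9 lie in the MHC region of chromosome 20 with Tap1 and Tap2, the peptide transporter genes, in the order Tap2, Psmb8, Tap1, Psmb9. On the CFA arrays of rats 2 and 3 the deviation of a gene from its mean over all arrays was 0.43 and -0.53 for Psmb8, 0.69 and -0.61 for Psmb9, 0.66 and -0.64 for Tap1, and 0.79 and -0.004 for Tap2. The median deviation of 28 interferon response genes on these arrays was 0.61 and -0.26. On the CFA array of rat 1, also low for both subunits, the deviation of Tap1 was -0.06, that of Tap2 was 0.34, and the median of the interferon response genes was -0.25. On the CFA array of rat 6 the deviations were 0.39 (Psmb8), 0.21 (Psmb9), -0.03 (Tap1) and -0.06 (Tap2), and the interferon median was -0.16. In the same order they were -0.13, -0.02, -0.11 and -0.79 in rat 8 (interferon median -0.15). In rat 5 they were -0.03, -0.07, 0.05 and 0.14 (interferon median 0.02). On the CFA arrays the transporter genes followed the subunits in rat 2, Tap1 did so in rat 3, and neither did in rats 1 and 6. In the same order of genes, the contralateral arrays had 0.28, 0.46, 0.11 and 0.54 in rat 2. In rat 3 they had -0.21, -0.43, -0.25 and -0.80. The others were mixed, with 0.20, 0.13, -0.08 and -0.05 in rat 1. Rat 5 had -0.03, 0.09, 0.33 and 0.12, and rat 6 had 0.20, 0.08, 0.03 and -0.23. Tap1 had a log2 fold change of -0.05 and Tap2 of 0.15 (adjusted p = 0.925 and 0.837 from limma).

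The constitutive catalytic subunits also stayed short of the test. Psmb5, which cleaves after hydrophobic residues, had signals of 16.78, 16.81, 16.76, 16.89 and 16.87 in the contralateral ganglia (rats 1, 2, 3, 5 and 6), and of 16.96, 16.87, 16.76, 17.22, 17.28 and 17.33 in the CFA ganglia (rats 1, 2, 3, 5, 6 and 8). The CFA arrays of slide 5 (rats 5, 6 and 8) stood above all others, and those of slide 4 were level with the contralateral arrays. The difference on the log2 scale was 0.25 (SE 0.12, limma adjusted p = 0.469). It was 0.09 within slide 2 and 0.001 when the raw spot signal was taken with no background correction.

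Psmb6, which cleaves after acidic residues, had signals of 14.57, 14.57, 14.54, 14.60 and 14.57 on the contralateral and of 14.62, 14.77, 14.76, 14.74, 14.66 and 14.60 on the CFA arrays. It was higher on the CFA side in 5 of 5 rats, by 0.05 to 0.22, and the groups overlapped only at 14.60. With a pooled SD of 0.06, among the lowest of all members, an exact permutation test (two-sided) gave p = 0.0108. In limma the log2 fold change was 0.12 (SE 0.07), with an unadjusted p of 0.108 and an adjusted p of 0.521, and within slide 2 it was 0.03. Psmb6 was not alone in this. The exact permutation test also gave p of 0.05 or less for other members that did not pass in limma. These were Psmb3 (0.0108), Psmc1 (0.0216), Psmd8 (0.0325), Psma6 (0.0346), Psma4 (0.0368) and Psmg2 (0.0433). The share of all probes at this p was not computed for the exact test. Psmb7, with a trypsin-like activity, had a log2 fold change of 0.02 (interval -0.16 to 0.20, adjusted p = 0.925 from limma).

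Each immunoproteasome subunit was set against the constitutive subunit it replaces, as the difference of their deviations on the same array. For Psmb8 over Psmb5 this difference was -0.19 ± 0.41 (SD, n = 6) on the CFA and 0.22 ± 0.20 (SD, n = 5) on the contralateral arrays. For Psmb9 over Psmb6 it was -0.11 ± 0.47 and 0.13 ± 0.31, and for Psmb10 over Psmb7 -0.01 ± 0.12 and 0.01 ± 0.13. In none of the 3 pairs did the groups separate, and in the first the CFA arrays ran from -0.58 (rat 1) to 0.52 (rat 2), past the contralateral range of -0.01 to 0.42 at both ends.

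Both genes that were higher encode subunits of the 20S core, Psma7 in the alpha ring and Psmb2 in the beta ring. Psma7 had signals of 15.44, 15.49, 15.33, 15.69 and 15.60 in the contralateral ganglia (rats 1, 2, 3, 5 and 6), and of 15.68, 15.73, 15.71, 15.84, 15.78 and 15.77 in the CFA ganglia (rats 1, 2, 3, 5, 6 and 8). The lowest CFA array, that of rat 1, was just under the highest contralateral one, and the CFA side was the higher one in 5 of 5 rats. The difference on the log2 scale was 0.25 (SE 0.08, limma adjusted p = 0.389), a 1.19-fold difference, and an exact permutation test (two-sided) gave p = 0.00433. Limma's unadjusted p was 0.0120, and it stayed at 0.05 or less under 20 of 25 alternatives. Within slide 2 the difference was 0.04. Of the other 7 alpha subunits, Psma6 had the smallest p (log2 fold change -0.17, unadjusted p = 0.0686 from limma; 0.02 within slide 2), and the rest had log2 fold changes from -0.08 (Psma4) to 0.27 (Psma8).

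Psmb2 had signals of 12.02, 12.11, 11.57, 12.01 and 12.32 on the contralateral and of 11.61, 12.63, 13.31, 12.94, 12.53 and 12.49 on the CFA arrays. The CFA arrays of slides 4 and 5 lay above every contralateral array, and that of rat 1, on slide 2, lay among the contralateral ones. The difference on the log2 scale was 0.58 (SE 0.26, limma adjusted p = 0.460), a 1.49-fold difference (exact permutation test, two-sided, p = 0.0736, and 0.0478 unadjusted in limma). This call held under 10 of 25 alternatives. Its direction turned where slides were respected, to -0.55 on slide 2 alone, and to -0.39 in a fit with scan day as a block. The unadjusted p was 0.00209 in limma without the CFA array of rat 1 and 0.103 with the rat as a replicate block. Psmb3 had a log2 fold change of 0.15 (unadjusted p = 0.0710 from limma) and of -0.015 within slide 2, Psmb1 of -0.11 and Psmb4 of 0.06.

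Psmb2, Psmb5 and Psmb6 hold the core of the antioxidant response element, which is bound by Nfe2l2 and its relative Nfe2l1, the known activators of proteasome genes. The stretches of 100 bases before their starts are shown with TGACNNNGC, searched on both strands, in capitals.
Psmb2, chr5:144254958-144255057, plus strand: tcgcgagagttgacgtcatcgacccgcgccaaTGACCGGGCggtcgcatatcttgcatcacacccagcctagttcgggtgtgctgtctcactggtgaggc
Psmb5, chr15:32047380-32047479, minus strand: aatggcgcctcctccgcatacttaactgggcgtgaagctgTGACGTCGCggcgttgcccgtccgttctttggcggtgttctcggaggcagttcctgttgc
Psmb6, chr10:55737788-55737887, plus strand: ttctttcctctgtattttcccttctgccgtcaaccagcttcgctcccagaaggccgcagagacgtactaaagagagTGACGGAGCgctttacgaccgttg
The core was held by 7 of 41 proteasome promoters (17.1%), Psma3, Psmb2, Psmb5, Psmb6, Psmd1, Psmd3 and Psmd9, and by 12.1% of all promoters. The 3 genes shown had the highest log2 fold changes of the 7, 0.58 (Psmb2), 0.25 (Psmb5) and 0.12 (Psmb6). The others had 0.03 (Psma3), 0.03 (Psmd3), -0.07 (Psmd9) and -0.08 (Psmd1). Of the 7, 1 passed an unadjusted p of 0.05, against 10.8% of all probes. Nfe2l2 itself had a log2 fold change of -0.01 (adjusted p = 0.973 from limma) and Nfe2l1 of -0.20 (adjusted p = 0.489).

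Among the cap subunits a single gene passed. Of 6 ATPases, 1 passed an unadjusted p of 0.05, on the lower side, and 5 did not, and of 10 subunits without ATPase activity none passed. Psmc5 had signals of 16.49, 16.44, 16.38, 16.34 and 16.29 in the contralateral ganglia (rats 1, 2, 3, 5 and 6), and of 16.41, 16.21, 16.07, 16.07, 16.05 and 16.14 in the CFA ganglia (rats 1, 2, 3, 5, 6 and 8). The CFA array of rat 1 lay within the contralateral range and the other 5 lay below it, and the CFA side was the lower one in 5 of 5 rats. The difference on the log2 scale was -0.23 (SE 0.09, limma adjusted p = 0.425). Unadjusted, limma gave p = 0.0212, and the exact permutation test (two-sided) 0.0152. The call held under 18 of 25 alternatives. The difference was 0.092, in the other direction, on slide 2 alone, and 0.018 in a fit with scan day as a block.

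Psmd8, a lid subunit, was close to the limit. Its signals were 13.22, 13.30, 13.28, 13.06 and 13.01 on the contralateral and 13.10, 13.14, 12.85, 12.90, 12.89 and 12.97 on the CFA arrays, lower on the CFA side in 5 of 5 rats but with overlap. The difference on the log2 scale was -0.20 (SE 0.09, limma adjusted p = 0.465), with an unadjusted p of 0.0507. It was 0.06 within slide 2. Psmc1 had a log2 fold change of -0.16 (unadjusted p = 0.0561 from limma) and of 0.07 within slide 2. Psmc3, higher on the CFA side in 5 of 5 rats, had 0.21 (unadjusted p = 0.102 from limma), and passed with the rat as a replicate block (0.29, unadjusted p = 0.0231). The remaining cap subunits had values between -0.09 and 0.10, among them the ubiquitin receptor Psmd4 (-0.09) and the deubiquitinase Psmd14 (-0.05).

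**Figure D3:**
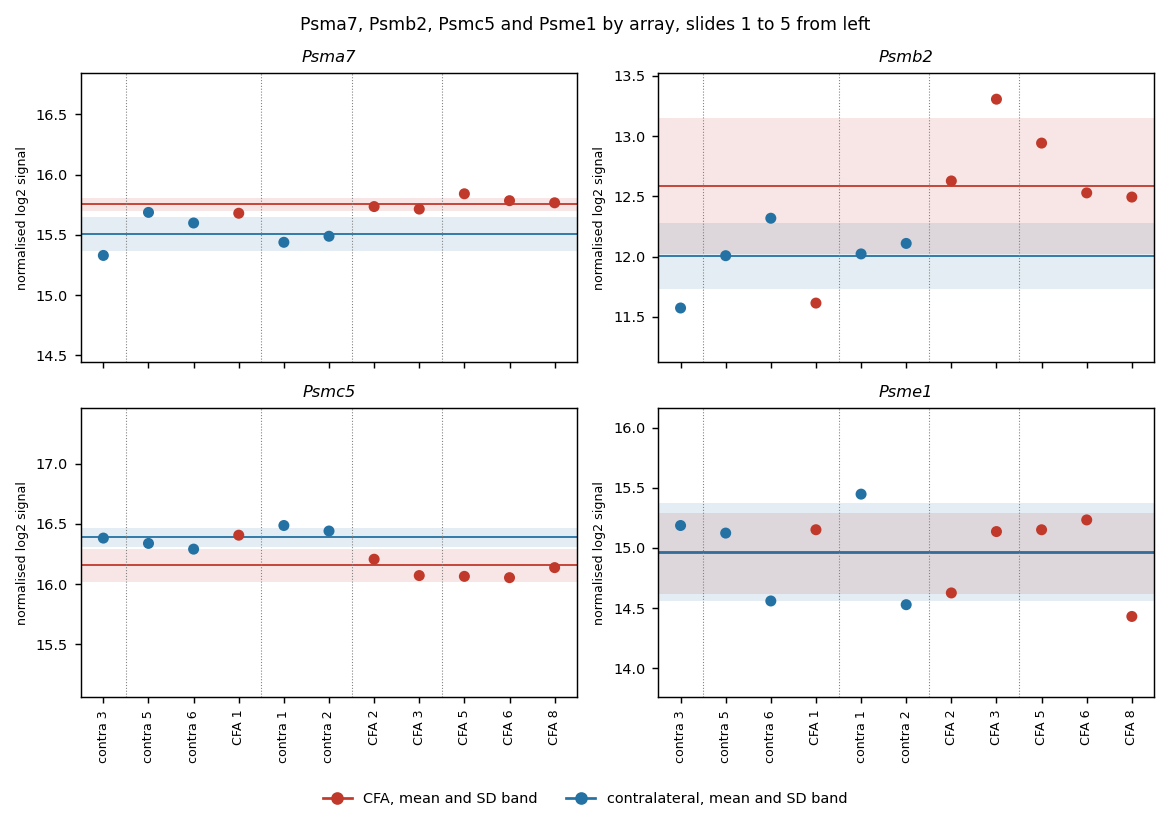
Normalised log2 signal (y axis) of Psma7, Psmb2, Psmc5 and Psme1 on each array (x axis, side and rat, dotted lines between slides), with the mean and SD of each group. The CFA array of rat 1 on slide 2 is on the contralateral side of the difference for Psmb2 and Psmc5, and Psme1 falls into a high and a low level on both sides.

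The activators, the inhibitor and the assembly factors did not pass either. Psme1 and Psme2 form the ring that opens the core in cells exposed to interferon gamma. Psme2 had a log2 fold change of -0.15 (SE 0.14, limma adjusted p = 0.675), and Psme3, the nuclear activator, one of 0.09 (SE 0.17, adjusted p = 0.843). The inhibitor gene Psmf1 had one of -0.13 (SE 0.13, adjusted p = 0.689), and the core assembly factors Psmg2 and Psmg4 had -0.16 (-0.02 within slide 2) and 0.02. Psmd5, Psmd9 and Psmd10, chaperones of cap assembly, had -0.01, -0.07 and -0.01.

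For Psme1 the arrays fell into 2 levels within both groups. Its signal was 15.45, 14.53, 15.19, 15.12 and 14.56 in the contralateral ganglia (rats 1, 2, 3, 5 and 6), and 15.15, 14.63, 15.14, 15.15, 15.23 and 14.43 in the CFA ganglia (rats 1, 2, 3, 5, 6 and 8). In rats 1, 2, 3 and 5 both sides were on the same level, and in rat 6 the contralateral side was low and the CFA side high. The difference on the log2 scale was -0.01 (SE 0.21, limma adjusted p = 0.982). A comparison chosen after its values were seen concerns the anterior pituitary genes Gh1 and Prl. The 4 arrays with low Psme1 were those with the highest Gh1 signals, 12.84, 15.52, 16.23 and 13.29, against 5.71 to 12.46 on the others, and with the highest Prl signals. The part of pituitary RNA in the level of Psme1 was not tested.

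Across the arrays the proteasome genes shifted together only slightly. The median deviation of all 45 genes from their own means ran from -0.06 to 0.09 on the contralateral and from -0.12 to 0.05 on the CFA arrays. The lowest was the CFA array of rat 3, with 12 of 45 genes above their mean, and the highest were both arrays of slide 3 (contralateral, rats 1 and 2), with 32 and 33. The contralateral array of rat 6, on slide 2, had 7. Core subunits other than those of the immunoproteasome were 0.05 to 0.11 above their means on the 3 arrays of slide 5, and cap subunits -0.12 and -0.06 on those of slide 4.

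**Figure D4:**
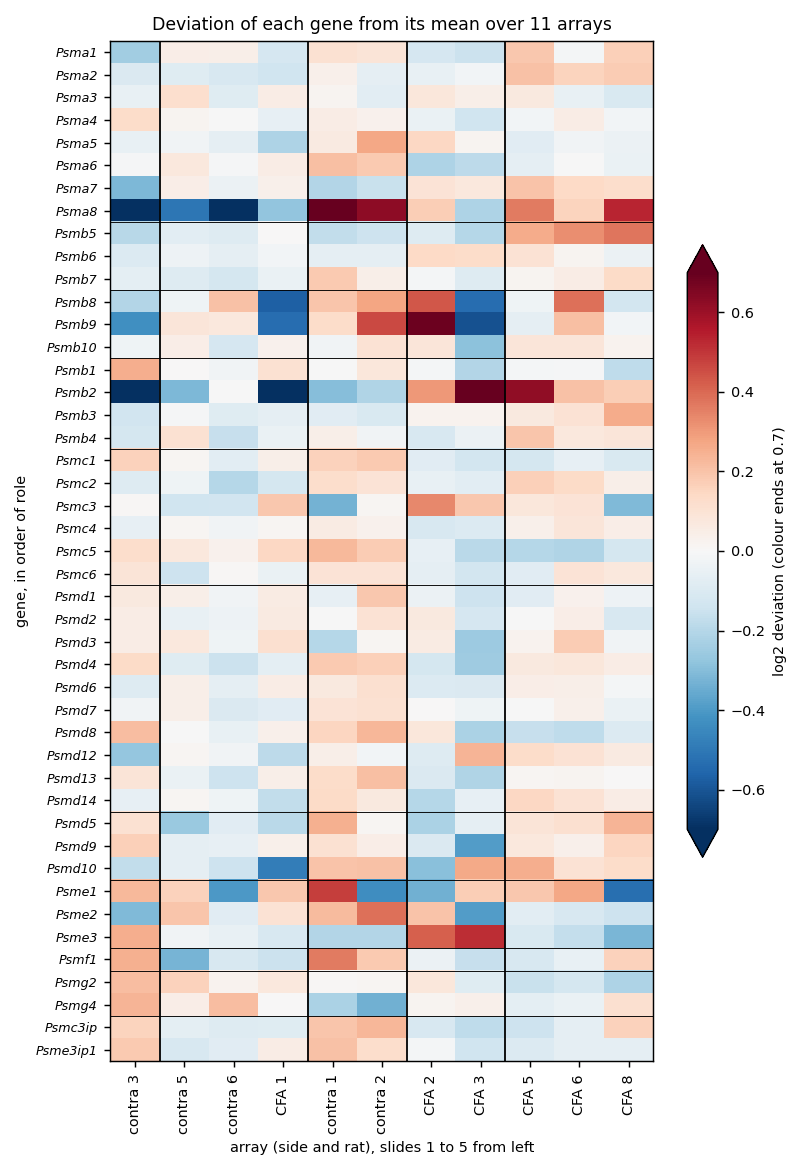
Deviation (colour, log2) of each gene (y axis, in order of role) from its mean over the 11 arrays (x axis, in order of slide, black lines between slides). Psmb8 and Psmb9 share their pattern over the arrays, Psmb2 is red only on slides 4 and 5, and most other genes stay within 0.3 of their mean.

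Position on the array moved with the sign of the difference. The array has 532 rows, and of the 24 proteasome genes in rows 134 to 399, 20 had a log2 fold change below 0, with a median of -0.09. In rows 1 to 133, 9 of 15 were above 0 (median 0.02), and in rows 400 to 532, 4 of 6 (median 0.18). Bright spots of all kinds had the same profile, at -0.12 (CFA minus contralateral) in rows 222 to 266, which hold Psmc5 in row 260, and at 0.10 in rows 488 to 532, which hold Psma7 in row 495. After each of 12 bands of rows was centred on its bright spots, the log2 fold change was -0.12 for Psmc5 (unadjusted p = 0.140 from limma), 0.14 for Psma7 (0.0914) and 0.56 for Psmb2 (0.0683). Then 1 of 45 genes passed an unadjusted p of 0.05, against 9.3% of all probes. It was Psmb3 (0.19, unadjusted p = 0.0281 from limma). This setting was chosen after the data had been seen.

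**Figure D5:**
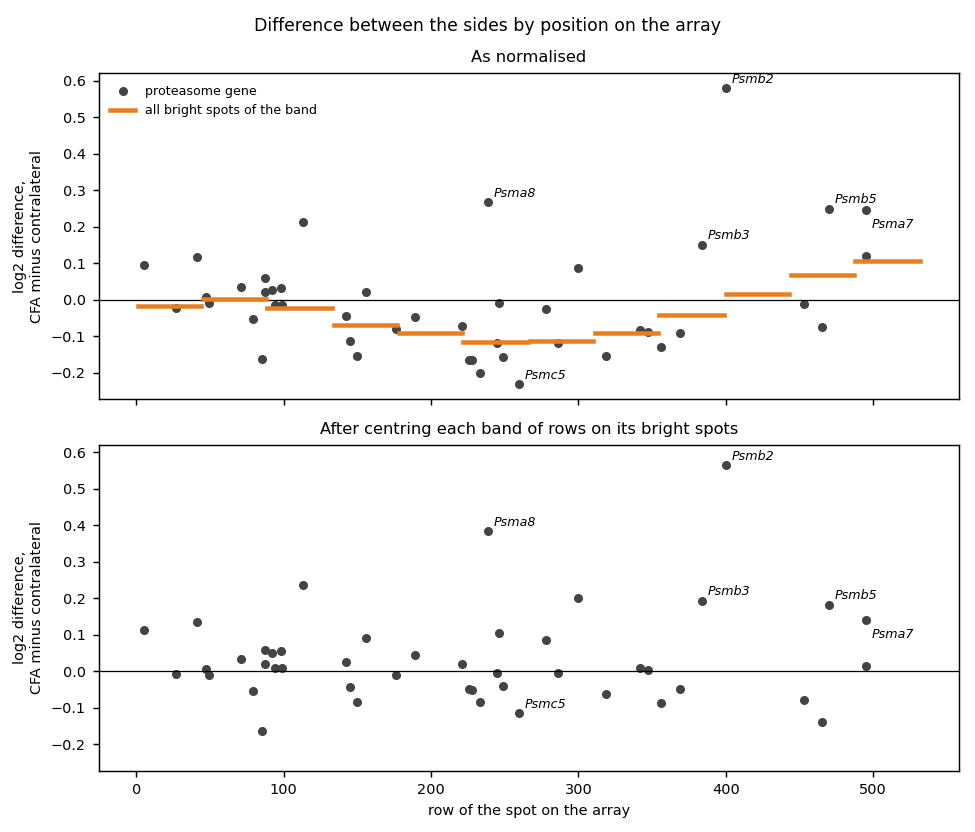
Log2 difference between the sides (y axis) of the 45 genes against the row of their spot (x axis), as normalised (top, with the median of the bright spots of each band in orange) and after centring each band (bottom). In the top panel the genes follow the orange steps, below 0 in the middle rows and above 0 in the last rows, and Psmb2 stays at 0.56 in the bottom panel.

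Other genes of the pathway were counted at the same unadjusted p of 0.05, which 10.8% of all probes passed. Of 9 measured further parts and regulators, 1 passed, the core maturation factor Pomp, which was lower on the CFA side (log2 fold change -0.20, SE 0.08, limma adjusted p = 0.435; -0.02 within slide 2). None of 19 genes for ubiquitin, its activating enzymes and the shuttle factors passed, with a median log2 fold change of -0.01. None of 16 genes of MHC class I presentation passed, with a median of 0.18, and B2m, the light chain of class I molecules, had 0.12. Of 28 interferon response genes, 1 passed, Ifngr2, the second chain of the interferon gamma receptor, which was lower (-0.32, SE 0.13, limma adjusted p = 0.437; 0.09 within slide 2). Their median was -0.08, with 0.07 for Irf1, a transcription factor of the response. For Ifng, which encodes interferon gamma itself, the spot was not well above background on any of 6 CFA arrays and was so on 2 of 5 contralateral ones.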

How the data were processed

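Gene expression was measured in 11 trigeminal ganglia on Arraystar rat lncRNA arrays (Agilent, single colour), whose design names genes on the assembly rn4. As deposited, each array's intensity values are scanner output, background-subtracted by the software (Agilent Feature Extraction, version 11.0.1.1) and not normalised between arrays. A second file of the authors, with linear intensity values quantile normalised in limma, served as an alternative. From the scanner files, the log2 of the processed signal was taken, flagged outlier spots (1.49% of the total) were set to missing, the 42136 spots that are not controls were quantile normalised, and spots were averaged to 24684 probes. Groups, taken from the sample labels, were compared with limma 3.58.1 (R 4.3.3) with no term for the rat, on which the study's methods are silent, and p-values were adjusted over all probes by the Benjamini-Hochberg method. On simulated data with known changes the test was checked.

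Of 15321 probes with the accession of an mRNA, 14274 were named through a RefSeq table of the assembly GRCr8, of which only names and promoter sequences were used. The rule took the probe with the highest mean signal for each gene. RefSeq also names 46 pseudogenes after proteasome genes, 19 of the 45 among them, and whether a probe also binds their transcripts was not tested. The text names the 6 catalytic subunits, every member at an unadjusted p of 0.05 or less or with a fold change over 2, in each role the members with the smallest p and the largest change, and up to 3 genes of each other list at an unadjusted p of 0.05 or less. The other genes named were chosen after their values were seen. The members and lists were chosen with earlier results of these data known.

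Equal numbers stand for the same rat. Deviations from the group means correlated between both sides of a rat by over 0.1 in only 1 of 5 animals. In 0 of 5 the best match of the CFA array was its own opposite side, and the main test did not use the numbers as pairs. Both sides of a rat were always on different slides, so this check cannot show that the rat had no effect. The exact permutation tests were two-sided over 462 splits of the arrays, and the smallest p they allow is 0.00216. Alternatives were other scalings, background corrections, filters and models, position on the array, slide and scan day, and each array left out. The number of arrays limits the precision. The labels do not say whether ganglia were processed apart, so p-values measure only the spread between these arrays. Some genes of the lists, and the Schwann cell list, are not reported here.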

Additional observations from a re-analysis of the deposited data

Results flagged for a closer look

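In 5 of 90 groups of arrays (45 genes, 2 sides), or 5.56%, a single array lay far from the rest by Dixon's criterion, where chance gives about 1 in 20. Psmb10 was at 14.50 on the CFA array of rat 3, while the other CFA arrays lay between 14.81 and 14.87. The contralateral array of rat 3 was low for Psma1 (15.20, the others 15.48 to 15.55) and for Psmd12 (14.31, the others 14.56 to 14.63). The CFA array of rat 8 was high for Psmf1 (14.84, the others 14.52 to 14.64) and for Psmc3ip (11.07, the others 10.73 to 10.85).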

How the results depend on the processing

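Under all 25 alternatives with a test, 0 proteasome genes passed the study's threshold and 0 an adjusted p of 0.05. The count at an unadjusted p of 0.05 or less was 3 as reported, against 10.8% of all probes. It was 5 with outlier spots kept, where the share of all probes was close to that as reported. With an intensity trend in limma it was 9 (5 higher, 4 lower), against 11.2% of all probes. With slide as a random effect it was 1, against 4.85%, so calls fell among all probes too. With slide or scan day as a block the difference rested on the CFA array of rat 1, so no count is given. With rows centred on bright spots, which was added after seeing the data, the count was 1, against 9.3%. With 1 array left out it was lowest without the contralateral array of rat 1, at 1, against 6.67% of all probes. It was highest without the CFA array of rat 1, at 7, against 15.6%. Without the contralateral array of rat 6 it was 5, and a larger share of all probes passed than as reported. With the rat as a replicate block it was again 3 (Psma7, Psmc5 and Psmc3), against 9.9% of all probes. In that fit the CFA array of rat 8 has no partner and drops out. The median log2 fold change of the 45 genes was -0.12 with 75th percentile scaling and -0.14 with rows centred on all spots. That of the immunoproteasome subunits was -0.62 with slide as a block, -0.62 on slide 2 alone and -0.60 by scan day, all of which rest on the CFA array of rat 1. It was -0.26 to -0.01 with 1 array left out. The log2 fold change of Psmb2 turned to -0.55 (slide as a block, and slide 2 alone) and -0.39 (scan day as a block). That of Psmc5 turned to 0.092 (slide as a block, and slide 2 alone) and 0.018 (scan day as a block). The cause was not tested. The files used hold no mean spot signal, so the median took its place where background correction was changed. Averaging all mRNA probes of a gene was not run, since each gene has 1.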
